A study of Mus musculus with 8 samples.

Results

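Transcripts of 6 cell adhesion molecules, Selp, Icam1, Vcam1, Cd44, Alcam and Mcam, were followed across 8 arrays of mouse embryonic fibroblasts. Every probe set whose only gene symbol in the platform annotation is one of these 6 was taken, which gave 10 of the 10833 probe sets with a single symbol, and 6 of the 8251 genes those stand for. The genes were chosen by their genotype and OSM differences in log2 value on these same arrays, so their differences between groups are given as a description, and no p-value is used to support them. The 4 groups held 2 arrays each. They were Stat3 KO (STAT3-/-) cells given oncostatin M (OSM), untreated Stat3 KO cells, Stat3 WT (STAT3+/+) cells given OSM, and untreated Stat3 WT cells. OSM belongs to the cytokines related to interleukin-6. It was given at 20 ng/ml for 30 minutes, and the titles were used to tell treated from untreated arrays, since the sample descriptions mention OSM for all 8. Both lines had immortalised spontaneously and grew in the same serum-containing medium. The titles name a cell line of each genotype and do not tell whether the number that ends each title marks a further line. The loss of Stat3 and any other difference between the lines cannot be told apart.

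Adhesion molecules let a cell hold on to its neighbours, to passing leukocytes and to matrix. P-selectin (Selp) catches sugar-bearing ligands on rolling leukocytes, ICAM-1 and VCAM-1 are immunoglobulin-type ligands of leukocyte integrins, CD44 binds hyaluronan, and ALCAM and MCAM are immunoglobulin-type molecules of cell-to-cell contact. Selp, Icam1 and Vcam1 are known as genes that inflammatory cytokines switch on in endothelium, largely through NF-kB, and the STAT factors that OSM activates bind palindromic sites of the form TTCNNNGAA. Selp is best known from platelets and endothelium, not from fibroblasts.

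The deposited values are log2 expression values, and a value under 5 was read as near background. Arrays of the same title number (2 or 3) and different groups correlated at 0.932 to 0.977, above the 0.869 to 0.926 of both arrays of a group, so differences are also given within each number. The number 2 array of Stat3 KO cells with OSM stood apart from this pattern: its correlation with untreated Stat3 KO number 3 was 0.930, the highest among pairs that share neither group nor number (0.836 to 0.930). Differences within number 3 leave it out. Stat3 itself read 8.70 and 9.17 on the arrays of Stat3 KO cells under OSM, 8.08 and 7.81 in Stat3 KO cells without it, 11.82 and 11.94 in Stat3 WT cells under OSM and 10.11 and 10.50 in Stat3 WT cells without it (numbers 2 and 3). A further Stat3 probe set read 2.94 and 7.30, 2.76 and 2.86, 11.99 and 12.57, and 9.80 and 10.95 in those groups, so the number 3 array of Stat3 KO cells with OSM was higher than the other Stat3 KO arrays, and differences within number 2 leave that array out. Of 12 fibroblast markers 9, among them Col1a1, Col1a2 and Sparc, passed the filter on low values, while Vim, Thy1 and Fap read under 5 on all 8 arrays. A value under 5 on all arrays does not by itself show that a transcript was absent. The labels do not tell whether both arrays of a group stem from different cultures, so p-values measure only the spread between these arrays. In RNA of whole cultures fewer expressing cells and less RNA per cell cannot be told apart.

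The filter, a log2 value of at least 5 on at least 2 arrays, kept 6756 probe sets, among them 7 of the 10 member probe sets, which stand for 5 of the 6 genes. Over these 6756, limma with Benjamini-Hochberg adjustment called 0 (0.0%) for Stat3 KO against WT without OSM, 1 (0.0148%) with OSM, 0 (0.0%) for OSM in Stat3 KO cells, 0 (0.0%) for OSM in Stat3 WT cells and 0 (0.0%) for the difference of the OSM responses. Unadjusted p-values under 0.05 numbered 151, 243, 138, 126 and 29 in the same order. No member was among the calls. This fit leaves out the title number, so shifts between the numbers count as spread. Low counts from it are no sign that differences were absent. With the title number as a block in limma, unadjusted p-values under 0.05 numbered 653, 814, 746, 485 and 248 in the same order, and calls 0, 7, 2, 1 and 0.

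Selp carried the widest separation of genotypes among the 6 genes. It read 3.77 and 4.82 on the arrays of Stat3 KO cells under OSM (numbers 2 and 3), 3.89 and 5.32 in Stat3 KO cells without it, 8.999 and 11.22 in Stat3 WT cells under OSM and 7.11 and 8.32 in Stat3 WT cells without it. Every Stat3 KO array therefore lay below every Stat3 WT array, and 3 of the 4 Stat3 KO values lay under the background mark of 5. The group means, in the same order, were 4.30 ± 0.74, 4.60 ± 1.01, 10.11 ± 1.57 and 7.71 ± 0.85 (SD, n = 2 each). From high to low the order of means was Stat3 WT with OSM, untreated Stat3 WT, untreated Stat3 KO and Stat3 KO with OSM, and among these neighbours only both Stat3 KO groups overlapped.

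With OSM, Selp was lower in Stat3 KO than in Stat3 WT cells, with log2 differences of -5.23 within number 2 and -6.40 within number 3, and a mean of -5.81 ± 0.93 (limma SE). A drop of at least 5.23 within both numbers was seen in 2 of the 6756 probe sets (0.0296%), Selp included. Without OSM the difference was -3.22 and -2.99 within numbers 2 and 3, with a mean of -3.11 ± 0.93 (SE), and 3 probe sets (0.0444%) were at least 2.99 lower within both. Both SEs count the shift between title numbers as spread, and with the number as a block in limma both were 0.35. With values under 5 set to 5, since the Stat3 KO level is near background, the mean differences became -5.11 with OSM (-3.999 and -6.22 within numbers 2 and 3) and -2.55 without (-2.11 and -2.99). On that scale 2 probe sets (0.0296%) were at least 3.999 lower within both numbers with OSM, and 3 (0.0444%) at least 2.11 lower without. With the title number as a block in limma, Selp was 1 of the 7 probe sets called (0.104%) for Stat3 KO against WT with OSM (adjusted p = 0.0162). That call comes from the contrast on which Selp was picked and is no separate evidence.

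OSM was followed by higher Selp in Stat3 WT cells and not in Stat3 KO cells. The OSM difference in Stat3 KO cells was -0.11 within number 2 and -0.50 within number 3, between values near background. In Stat3 WT cells it was 1.89 and 2.91, and 36 of the 6756 probe sets (0.533%) were at least 1.89 higher within both numbers. The response of Stat3 KO minus that of Stat3 WT cells was -2.01 and -3.41, and 6 probe sets (0.0888%) were at least 2.01 lower within both. With values under 5 set to 5 it was -1.89 and -3.23, and Selp was the 1 probe set (0.0148%) at least 1.89 lower within both. As the Stat3 KO level lies near the floor, a fall there could not have been measured, and a mean of -0.31 is no measure of its size. Without the number 2 array of Stat3 KO cells with OSM that mean was 0.22, and without the number 3 array of untreated Stat3 KO cells it was 0.41. Both of these fits leave the numbers unbalanced.

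The start of Selp is shown because the gene's levels differed between the genotypes, so that the letters upstream can be read beside them. The 300 bases around the start site are from RefSeq (GRCm38.p6, plus strand, chr1:164115014-164115313), and capitals mark a match to the AP-1 motif TGANTCA, from -139 to -133 relative to the start. Motifs were searched on both strands, and this palindrome matches on both.
Selp promoter: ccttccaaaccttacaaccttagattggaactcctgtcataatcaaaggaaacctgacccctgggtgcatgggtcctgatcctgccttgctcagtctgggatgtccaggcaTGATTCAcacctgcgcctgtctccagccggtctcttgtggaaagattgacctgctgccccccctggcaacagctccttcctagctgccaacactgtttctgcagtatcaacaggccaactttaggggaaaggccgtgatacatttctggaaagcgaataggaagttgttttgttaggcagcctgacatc
The motif TGANTCA is held by 7.81% of all 32851 RefSeq promoter windows of that length. The letters TTCNNNGAA were not in the Selp window, and 8.3% of all windows hold them.

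Levels of the 6 genes on each array are plotted in the panels by group.

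**Figure D1:**
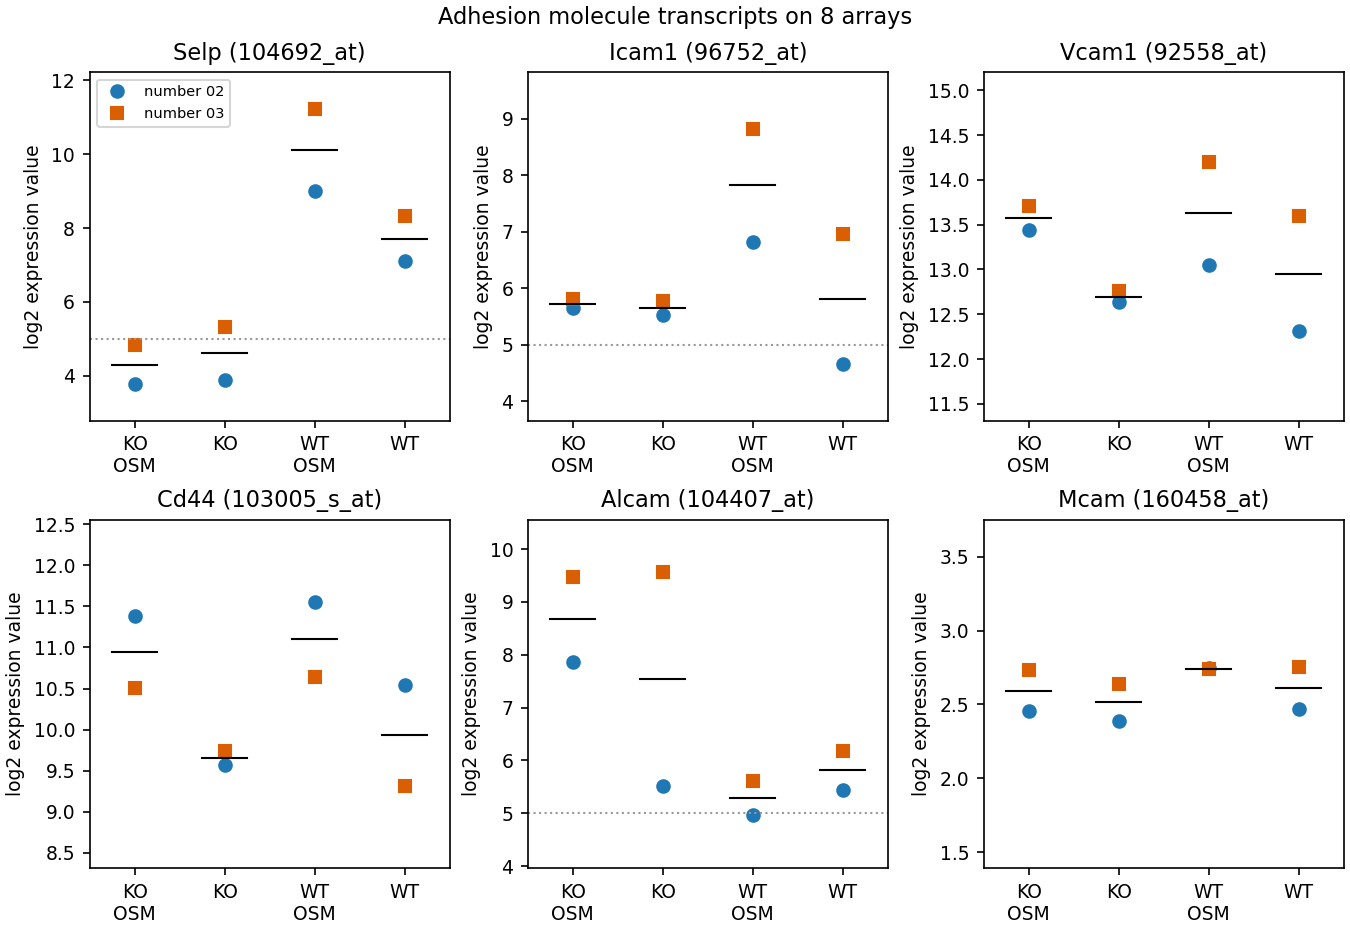
Log2 expression values of the 6 genes on the 8 arrays, 1 panel per gene with the probe set of highest mean. Circles are number 2 arrays, squares number 3 arrays, black lines group means, and the dotted line, in panels that reach it, is the background mark of 5. The y axes differ between panels. Selp lies at 3.77 to 5.32 on the Stat3 KO arrays and at 7.11 to 11.22 on the Stat3 WT arrays, and Mcam lies at 2.39 to 2.75 everywhere.

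Icam1, the ligand of the leukocyte integrins LFA-1 and Mac-1, showed an OSM difference in Stat3 WT cells and almost none in Stat3 KO cells. It read 5.66 and 5.80 on the arrays of Stat3 KO cells under OSM, 5.54 and 5.77 in Stat3 KO cells without it, 6.82 and 8.82 in Stat3 WT cells under OSM and 4.66 and 6.97 in Stat3 WT cells without it. The 4 Stat3 KO arrays stayed within a narrow band. That band lay close to the array medians (5.27 to 5.66) and not far above the background mark of 5. A fall or a small change there could go unseen. The arrays of each Stat3 WT group lay far apart by number, so that the treated and untreated Stat3 WT arrays overlapped. Within numbers 2 and 3 the OSM difference was 0.12 and 0.03 in Stat3 KO cells, against 2.17 and 1.85 in Stat3 WT cells. A gain of at least 1.85 within both numbers in Stat3 WT cells was seen in 41 of the 6756 probe sets (0.607%).

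Between genotypes, Icam1 was lower in Stat3 KO than in Stat3 WT cells with OSM, with differences of -1.16 and -3.02 within numbers 2 and 3. Without OSM the difference was 0.88 within number 2 and -1.199 within number 3, so the untreated cells gave no single direction. The response of Stat3 KO minus that of Stat3 WT cells was -2.04 and -1.82, and 7 probe sets (0.104%) were at least 1.82 lower within both numbers. With values under 5 set to 5, which changes the untreated Stat3 WT array of number 2, these became -1.70 and -1.82. The group means were 5.73 ± 0.10 and 5.65 ± 0.17 in Stat3 KO cells with and without OSM, and 7.82 ± 1.41 and 5.81 ± 1.64 in Stat3 WT cells with and without OSM (SD, n = 2 each).

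The Icam1 start is shown because it holds the palindrome that STAT factors are known to bind. The window is RefSeq's (GRCm38.p6, plus strand, chr9:21015690-21015989), and capitals mark the match, TTCCCGGAA, which lies from -42 to -34 relative to the start site.
Icam1 promoter: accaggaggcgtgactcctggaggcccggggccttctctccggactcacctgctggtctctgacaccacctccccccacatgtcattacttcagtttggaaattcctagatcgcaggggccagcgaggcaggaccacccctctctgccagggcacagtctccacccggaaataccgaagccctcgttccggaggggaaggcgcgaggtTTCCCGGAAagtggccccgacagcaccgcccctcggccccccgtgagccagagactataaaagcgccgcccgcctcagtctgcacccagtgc
The match fits both TTCNNNGAA and the stricter TTCCNGGAA, and 8.3% and 1.15% of the 32851 windows hold these. TGANTCA was not found in it. The windows of Cd44, Alcam and Mcam held no match to TTCNNNGAA or TGANTCA. An NF-kB consensus of the form GGGRNWYYCC (R is A or G, W is A or T, Y is C or T) was searched as well. It had no match in the windows of Selp, Icam1, Cd44, Alcam and Mcam, and 4.51% of all windows hold it. Sites that depart from this form were not counted. The Icam1 window holds TGGAAATTCC, which differs from it only in the first letter. Of the 6 members 5 matched the promoter table, all but Vcam1. A match is a description of letters and not of binding.

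Vcam1, the ligand of the integrin VLA-4, was among the brighter transcripts of its arrays and was somewhat higher with OSM in both genotypes. Its brightest probe set, 92558_at, read 13.45 and 13.71 on the arrays of Stat3 KO cells under OSM, 12.63 and 12.76 in Stat3 KO cells without it, 13.05 and 14.20 in Stat3 WT cells under OSM and 12.31 and 13.60 in Stat3 WT cells without it. The Stat3 KO groups did not overlap and the Stat3 WT groups did. Within numbers 2 and 3 the OSM difference was 0.81 and 0.95 in Stat3 KO cells, against 0.74 and 0.60 in Stat3 WT cells. The difference of the responses, Stat3 KO minus WT, was 0.07 and 0.35. Between genotypes the sign depended on the number, at 0.39 and -0.49 with OSM and 0.32 and -0.84 without.

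The other Vcam1 probe sets did not all follow it. Probe set 92559_at had OSM differences of 1.54 and 0.56 in Stat3 KO cells, against 0.41 and 0.65 in Stat3 WT cells. Probe set 92560_g_at had -0.10 and 0.79 in Stat3 KO cells, against 0.90 and 1.09 in Stat3 WT cells, where the groups did not overlap. Of the 3 probe sets, 92558_at and 92559_at were higher in number 3 than in number 2 in all 4 groups, and 92560_g_at was lower in all 4. Every OSM difference of the 3 probe sets was above 0 within both numbers, except that of 92560_g_at in Stat3 KO cells within number 2.

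Cd44, the main cell surface receptor for hyaluronan, was higher with OSM in both genotypes. Its bright probe set 103005_s_at read 11.39 and 10.51 on the arrays of Stat3 KO cells under OSM, 9.58 and 9.74 in Stat3 KO cells without it, 11.56 and 10.65 in Stat3 WT cells under OSM and 10.54 and 9.32 in Stat3 WT cells without it. In both genotypes the treated arrays lay above the untreated ones without overlap. The OSM difference was 1.81 and 0.77 within numbers 2 and 3 in Stat3 KO cells, against 1.01 and 1.33 in Stat3 WT cells, and the means were 1.29 ± 0.57 with Stat3 lost, against 1.17 ± 0.57 with Stat3 present (SE). With the title number as a block in limma both SEs were 0.36. A gain of at least 0.77 within both numbers was seen in 3.45% of probe sets in Stat3 KO cells, and one of at least 1.01 in 2.0% in Stat3 WT cells. The difference of the responses had opposite signs, 0.80 within number 2 and -0.56 within number 3. With OSM the genotypes differed by -0.17 and -0.14. The other Cd44 probe sets read 3.05 to 3.94 on all arrays and gave no measure of the transcript.

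The OSM differences of all kept member probe sets are set side by side in the plot of responses by genotype.

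**Figure D2:**
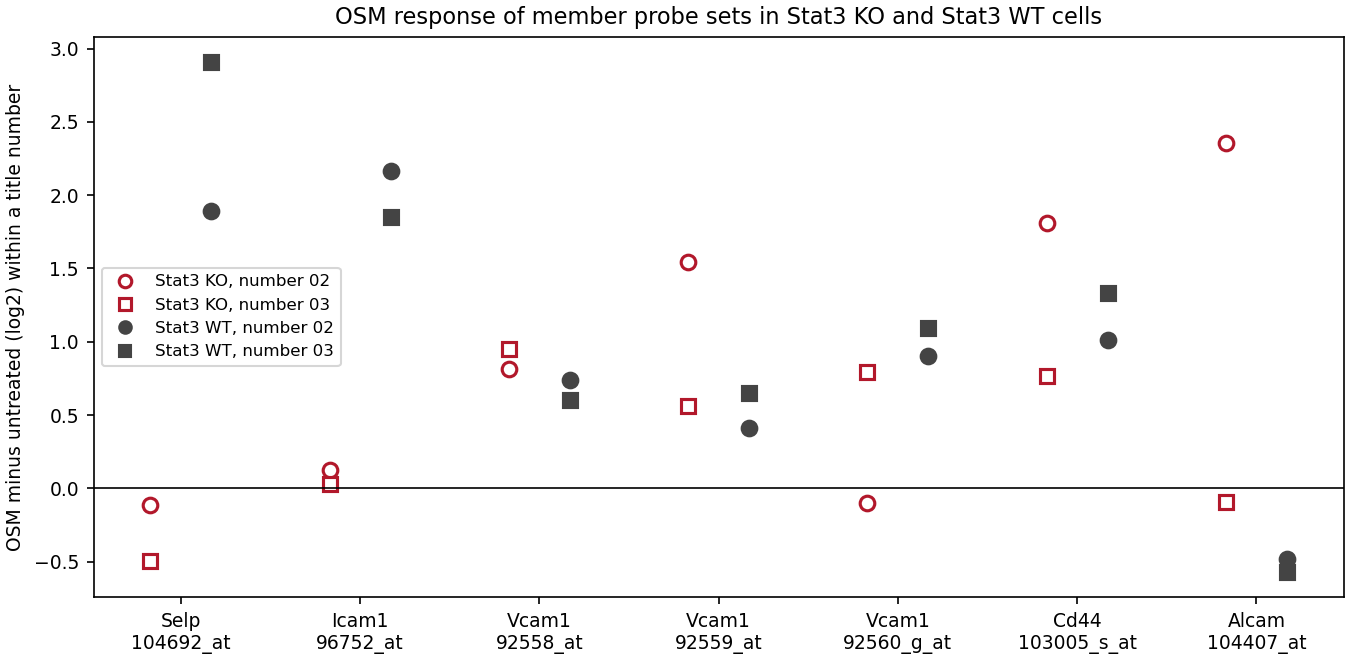
Log2 difference between OSM-treated and untreated arrays of the same title number for the 7 member probe sets kept, open red symbols for Stat3 KO and filled grey symbols for Stat3 WT, circles for number 2 and squares for number 3. Selp and Icam1 lie at -0.50 to 0.12 in Stat3 KO and at 1.85 to 2.91 in Stat3 WT, while Cd44 lies above 0.7 in all 4 pairs.

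Alcam, a ligand of CD6 that also binds itself, was the 1 member with higher values in Stat3 KO cells. It read 7.87 and 9.47 on the arrays of Stat3 KO cells under OSM, 5.51 and 9.56 in Stat3 KO cells without it, 4.96 and 5.61 in Stat3 WT cells under OSM and 5.44 and 6.18 in Stat3 WT cells without it. The untreated Stat3 KO array of number 2 lay within the range of the Stat3 WT arrays, while the other 3 Stat3 KO arrays lay above it. With OSM the genotype difference was 2.91 and 3.85 within numbers 2 and 3, and 13 of the 6756 probe sets (0.192%) were at least 2.91 higher within both. Without OSM it was 0.07 and 3.37. OSM itself gave 2.36 and -0.09 in Stat3 KO cells, against -0.48 and -0.57 in Stat3 WT cells, so the Stat3 KO value rests on number 2, which holds the array that stood apart. Without that array the mean genotype difference with OSM was 4.18. Alcam also differed by 4.05 between both untreated Stat3 KO arrays.

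Mcam, known from endothelium and melanoma, read 2.45 and 2.73 on the arrays of Stat3 KO cells under OSM, 2.39 and 2.64 in Stat3 KO cells without it, 2.75 and 2.74 in Stat3 WT cells under OSM and 2.47 and 2.75 in Stat3 WT cells without it. All 8 values are near background, so no difference was measurable.

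Over the 7 kept probe sets, a difference of at least 1 within both numbers was seen for 3 higher with OSM in Stat3 WT cells (Selp, Icam1 and Cd44, against 2.01% of all probe sets) and for 0 in Stat3 KO cells (2.19%). None was lower with OSM by that much in Stat3 KO cells (0.518% of all) or in Stat3 WT cells (0.933%). With OSM, 2 were lower by at least 1 in Stat3 KO than in Stat3 WT cells within both numbers (Selp and Icam1, against 1.73%) and 1 was higher (Alcam, 2.04%). Without OSM it was 1 lower (Selp, 1.04%) and 0 higher (0.992%). For the response of Stat3 KO minus that of Stat3 WT cells it was 2 lower (Selp and Icam1, 0.77%) and 0 higher (1.42%). Groups did not overlap for 4 member probe sets in Stat3 KO against WT with OSM (24.9% of all), 1 without OSM (19.2%), 2 for OSM in Stat3 KO cells (26.7%) and 3 for OSM in Stat3 WT cells (17.6%). These contrasts were the ones known when the genes were chosen, so nothing is read from the shares.

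**Figure D3:**
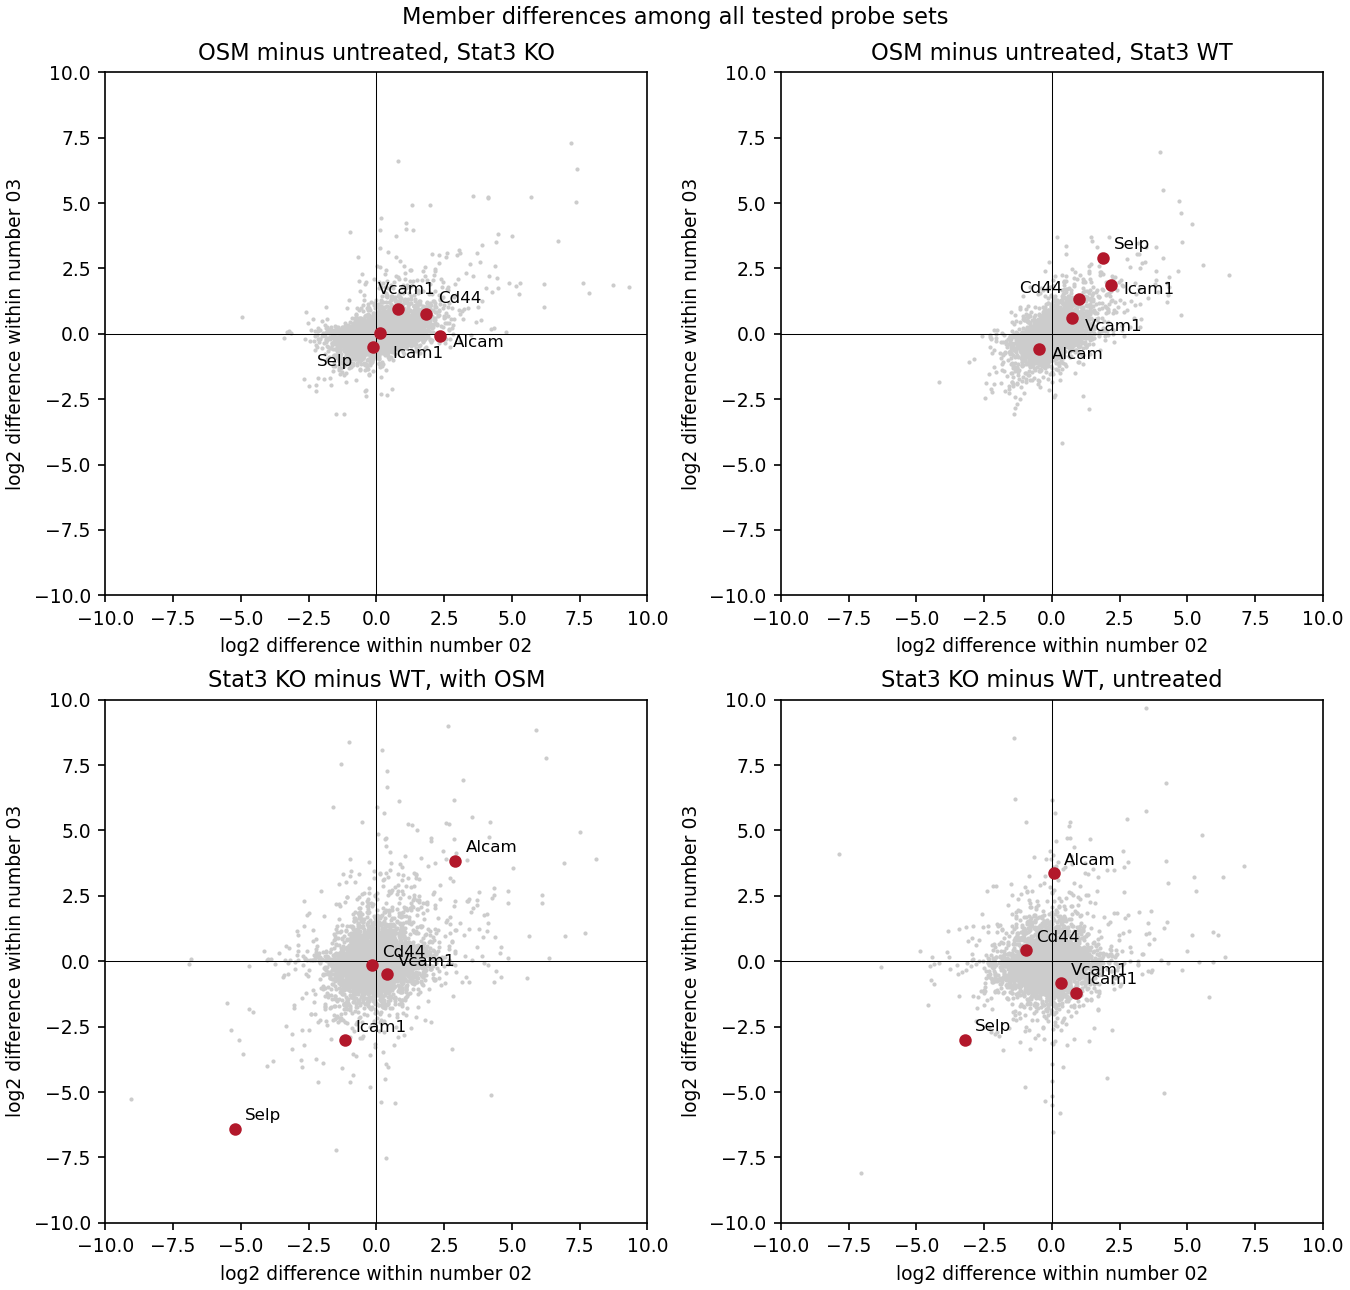
Log2 differences within number 2 (x axis) and within number 3 (y axis) for the 6756 probe sets tested (grey) and the brightest probe set of the 5 kept members (red), 1 panel per comparison. Selp lies at -5.23 and -6.40 for Stat3 KO minus WT with OSM, and Selp and Icam1 lie in the upper right for OSM in Stat3 WT cells and near the centre for OSM in Stat3 KO cells.

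Several members also differed by title number. Selp was higher in number 3 than in number 2 in all 4 groups, by 1.05 to 2.22 (limma adjusted p = 0.00921), and Vcam1 probe set 92559_at by 1.31 to 2.30 (adjusted p = 0.00482). These were 2 of the 7 kept member probe sets, against 41.1% of all probe sets called for the number. The number 3 and number 2 arrays did not overlap for 1 of the 7, beside 38.5% of all. Icam1 was higher in number 3 by 0.15 and 0.23 in Stat3 KO cells with and without OSM, against 2.00 and 2.31 in Stat3 WT cells with and without OSM. Cd44 was lower in number 3 in 3 of 4 groups. What the number marks is not given in the labels.

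Endothelial, platelet and leukocyte markers were read because Selp, Icam1 and Vcam1 are typical of those cells. Of the 12 endothelial markers 10 were on the array, and 6 of these, Cdh5, Tek, Tie1, Vwf, Cldn5 and Icam2, read under 5 on all 8 arrays. Their summed level, as log2 of the sum of linear values, ranged over 7.73 to 8.13 in Stat3 KO cells with OSM, 7.51 to 7.89 in untreated Stat3 KO cells, 7.81 to 8.86 in Stat3 WT cells with OSM and 7.46 to 8.12 in untreated Stat3 WT cells. Of 7 platelet markers 4 were on the array, Gp5 and Pf4 were under 5 everywhere, and the summed level was 6.29 to 6.43, 6.28 to 6.68, 6.11 to 6.34 and 6.16 to 6.44 in the same order. Of 10 leukocyte markers 9 were on the array, and 7, Ptprc and Itgam among them, were under 5 everywhere, with summed levels of 9.11 to 9.47, 9.31 to 10.33, 9.39 to 9.88 and 9.28 to 9.73. Most of that sum is 1 probe set of Csf1r, which read 8.80 to 10.20. Of 7 epithelial markers 5, Epcam and Cdh1 among them, were under 5 everywhere, with summed levels of 6.10 to 6.35, 6.02 to 6.28, 6.27 to 6.48 and 6.35 to 6.70. Within title numbers 2 and 3, the endothelial sum was higher with OSM in both genotypes, at 7.73 and 8.13 against 7.51 and 7.89 in Stat3 KO cells, and at 7.81 and 8.86 against 7.46 and 8.12 in Stat3 WT cells. Among its genes, Kdr read 4.76 and 8.12 in Stat3 WT cells with OSM and 4.81 and 6.32 without, so its highest value fell on the array with the highest Selp. In Stat3 KO cells Kdr read 4.30 and 6.12 with OSM and 4.39 and 5.63 without. Flt1 read 6.31 and 5.64 in Stat3 WT cells with OSM and 5.40 and 5.68 without, and 6.40 and 5.71 in Stat3 KO cells with OSM and 5.51 and 5.59 without. In Stat3 WT cells Emcn was lower with OSM within both numbers, at 4.32 and 5.23 against 4.72 and 5.36. Pecam1 was mixed there, at 5.78 and 5.76 with OSM and 5.47 and 5.89 without. Both were also mixed in Stat3 KO cells, Emcn at 4.57 and 5.45 with OSM and 4.75 and 5.29 without, Pecam1 at 5.65 and 5.97 with OSM and 5.68 and 5.84 without. The part of these lists in the Selp and Icam1 values was not tested. Fibroblast markers summed to 17.35 to 17.76, 17.53 to 17.87, 17.07 to 18.00 and 17.26 to 18.19.

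Partners of the members were read next. Of 18 selectin, selectin ligand and ligand enzyme genes 15 were on the array and 6 were kept. Sele and the P-selectin ligand gene Selplg were under 5 on all arrays. The 6 kept had a median OSM difference of -0.22 in Stat3 KO cells and 0.09 in Stat3 WT cells, beside 0.02 and -0.04 over all probe sets tested. The 5 kept integrin subunits had medians of 0.05 and -0.12, and the VLA-4 subunit gene Itga4 was under 5 on all arrays. The 10 kept immunoglobulin family molecules had medians of -0.08 and -0.09, and the 5 kept cadherins 0.44 and 0.32. The cadherin medians turned with the number, at 1.62 within number 2 and -0.39 within number 3 in Stat3 KO cells, and at 0.03 and -0.07 in Stat3 WT cells. In none of these lists did limma call a member, or a member differ by at least 1 within both numbers, in the OSM comparisons.

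Among the CD44 and hyaluronan genes Has2, which makes hyaluronan, was higher with OSM in both genotypes. Has2 read 8.05 and 10.38 on the arrays of Stat3 KO cells under OSM, 3.93 and 5.16 in Stat3 KO cells without it, 10.11 and 11.40 in Stat3 WT cells under OSM and 4.94 and 7.20 in Stat3 WT cells without it. Treated and untreated arrays did not overlap in either genotype, and the mean difference was 4.67 with Stat3 lost, against 4.68 with Stat3 present. The untreated number 2 arrays of both genotypes read under 5, and with values under 5 set to 5 these means became 4.13 and 4.65. It was the 1 of 8 kept list members to differ by at least 1 within both numbers, and the list medians were 0.19 and 0.14. With that floor the Has2 difference of Stat3 KO minus Stat3 WT cells was -1.54 with OSM, and without OSM it was 0 within number 2 and -2.05 within number 3. The sheddase list holds enzymes that cut adhesion molecules from the surface and, besides them, Psen2 and Timp3, an inhibitor of such enzymes. Among its 8 kept genes none differed by 1 with OSM within both numbers in either genotype. The gelatinase Mmp9 was higher in Stat3 KO than in Stat3 WT cells by 2.91 with OSM and by 3.64 without, and the sheddase Adam8 by 2.94 with OSM. The Stat3 WT arrays with OSM read 4.96 to 5.52 for Mmp9 and 3.495 to 4.32 for Adam8, close to background. With values under 5 set to 5, the Mmp9 differences became 2.88 with OSM and 3.06 without, as both untreated Stat3 WT arrays read under 5, and the Adam8 difference became 1.84. Psen2, a subunit of gamma-secretase, differed by -1.58 between Stat3 KO and WT cells with OSM, but within number 2 both values lay under 5, and with that floor the differences were 0 and -1.03 within numbers 2 and 3.

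Of the 28 NF-kB factors and inducers of adhesion molecules 26 were on the array and 20 were kept. Their median OSM difference was 0.42 in Stat3 KO cells and 0.46 in Stat3 WT cells. At least 1 higher within both numbers were 3 in Stat3 KO cells (2.19% of all probe sets), namely the AP-1 subunit Fosl1 (4.14), the interferon regulatory factor Irf1 (2.06) and the interleukin-1 receptor Il1r1 (1.69), and 6 in Stat3 WT cells (2.01%), among them Bcl3 (3.54), a partner of NF-kB p50 and p52, Fosl1 (3.10), Il1r1 (1.96) and the NF-kB inhibitor Tnfaip3 (1.72, or 0.73 with values under 5 set to 5). Stat3 itself (1.57) was another of the 6 in Stat3 WT cells. The cytokines Tnf, Il1a, Il1b and Ifng were under 5 on all arrays. Between Stat3 KO and Stat3 WT cells with OSM the difference was -4.23 for Bcl3, -2.94 for Stat3 and 2.64 for Irf1. The Bcl3 OSM difference in Stat3 KO cells turned with the number, at -0.67 within number 2 and 2.95 within number 3. With values under 5 set to 5 the latter was 2.77. In Stat3 WT cells the Bcl3 OSM difference was 4.66 and 2.42. The OSM response of Stat3 KO minus that of Stat3 WT cells was 1.99 for Irf1 and 1.04 for Fosl1. limma called none of these, and with the title number as a block it called Irf1 (adjusted p = 0.0387) and Stat3 (adjusted p = 0.0476) for Stat3 KO against WT with OSM. Stat3 is the gene by which the genotypes are defined, so its call is no separate result. The fibroblast marker Pdgfrb, a growth factor receptor, differed by -1.79 with OSM in Stat3 WT cells, and its response of Stat3 KO minus Stat3 WT cells was 1.38. The 9 kept fibroblast markers had median OSM differences of -0.23 in Stat3 KO cells and -0.18 in Stat3 WT cells.

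**Figure D4:**
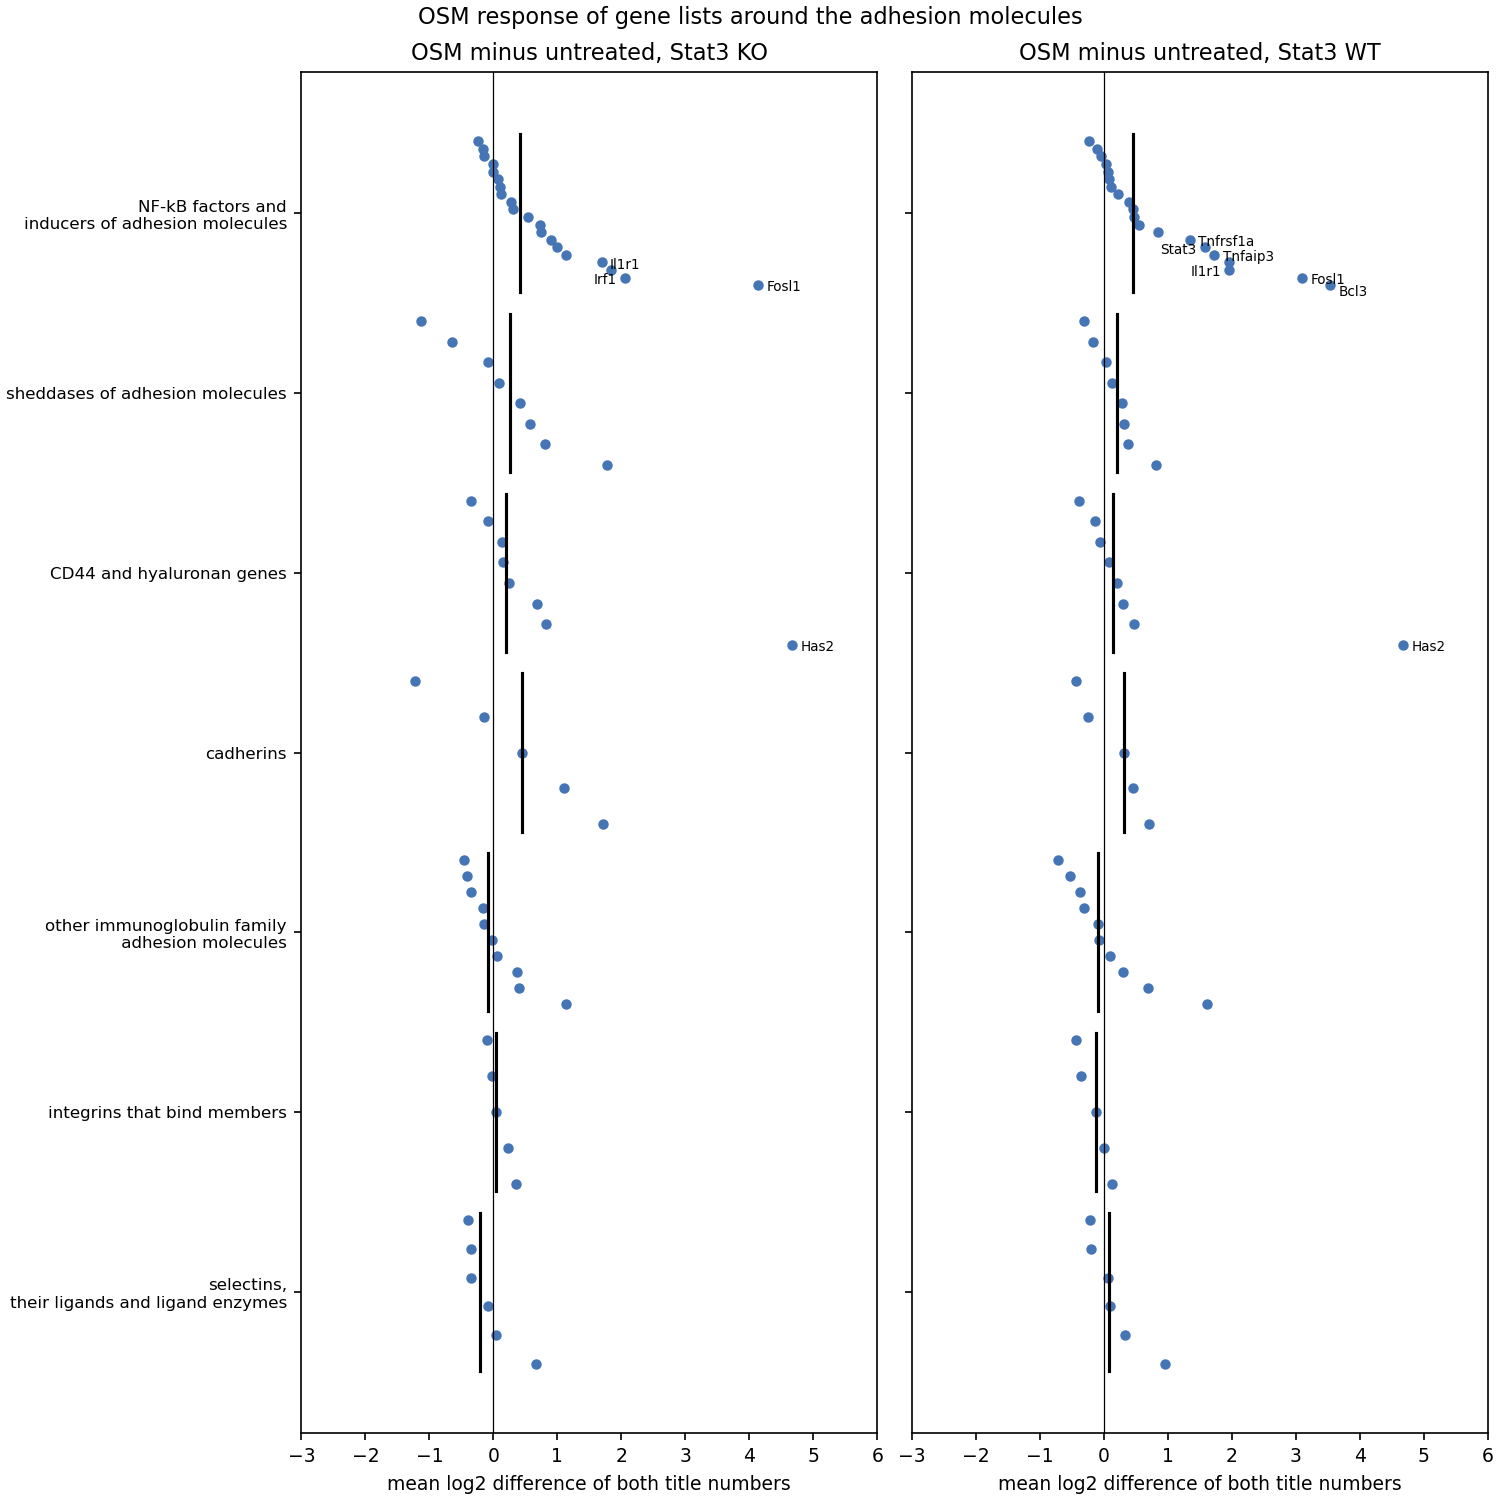
Mean log2 OSM difference of both title numbers (x axis) in Stat3 KO cells (left) and Stat3 WT cells (right) for the kept genes of 7 lists around the adhesion molecules. Each point is a gene, black bars are list medians, and genes that differ by at least 1 within both numbers are named. Has2 lies at 4.67 and 4.68, from untreated number 2 values under the background mark, and the medians of the selectin, integrin and immunoglobulin lists lie between -0.22 and 0.09.

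Patterns most like each member were sought over the 8 arrays after each title number's mean was subtracted, so the points share their group and number and only a description follows. For Selp the closest genes were the phosphofructokinase subunit Pfkl (r = 0.992), Rnase4 (r = 0.987), Eloc (r = 0.986), Frat2 (r = 0.982) and the prostacyclin synthase Ptgis (r = 0.982). The genotype differences with OSM of Pfkl, Rnase4, Eloc and Ptgis were -1.56, -1.31, -1.40 and -1.17. Frat2 read 1.98 to 2.38 on the Stat3 KO arrays, all near background, and its difference with values under 5 set to 5 was -1.26, beside -5.11 for Selp on the same scale. For Icam1 they were Pus1 (r = 0.957), Tsc22d1 (r = 0.955) and Map3k6 (r = 0.947), for Vcam1 Btg1 (r = 0.975), Alkbh5 (r = 0.968) and Sgk1 (r = 0.962), for Cd44 Nop56 (r = 0.994), Cct3 (r = 0.983) and Clic4 (r = 0.981), and for Alcam Tpm2 (r = 0.979), Dab2 (r = 0.975) and Calu (r = 0.971). Among the members themselves Selp and Icam1 correlated at 0.768, Icam1 and Vcam1 at 0.706, and Selp and Alcam at -0.849 on this scale. Without the subtraction, r with the closest gene was 0.58 for Selp and Pfkl and 0.01 for Icam1 and Pus1. It was 0.95 for Vcam1 and Btg1, 0.80 for Cd44 and Nop56 and 0.60 for Alcam and Tpm2.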

How the data were processed

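RNA of each sample went as biotin-labelled cRNA onto 1 Affymetrix array, per the labels' protocols. The deposited log2 values, 1 for every probe set and array, came from affy and GCRMA per the submitters' processing notes. Tool versions were not given in the sources used here, nor was it stated whether arrays were processed jointly. GCRMA compresses dim probe sets, so values under 5 were read as near background. The 8 arrays limit the precision of every value.

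Of 12488 probe sets 66 controls were set aside. The annotation gives 10833 probe sets 1 symbol, 396 several and 1193 none, and 10817 of the first matched RefSeq gene IDs (GRCm38.p6). Groups and numbers come from the sample titles. limma 3.58.1 in R 4.3.3 fitted 4 group means to all arrays (lmFit, eBayes with trend, two-sided), with Benjamini-Hochberg adjustment over 6756 probe sets and a threshold of 0.05. The scripts were checked on simulated data. A gene is represented by its kept probe set with the highest mean. Members, gene lists, tests and other settings were chosen with earlier results of these data known. Besides all members and Stat3, at most 6 list genes per comparison were named, those with the widest mean difference among genes at 1 or more within both numbers, with 5 genes of like pattern for Selp and 3 for each other kept member. List genes named as under 5 on all arrays were chosen after their values were seen.

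Differences between number 3 and number 2 correlated between groups at 0.589 to 0.911 over probe sets, so the numbers were taken to pair the arrays.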

Additional observations from a re-analysis of the deposited data

Results flagged for a closer look

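Among the kept member probe sets, that of Selp was the 1 whose OSM difference had opposite signs in the genotypes within both title numbers. It was -0.11 and -0.50 in the Stat3 KO line, against 1.89 and 2.91 in the Stat3 WT line. The response of Stat3 KO minus that of Stat3 WT cells averaged -2.71. The Stat3 KO values behind it lie near background, and with values under 5 set to 5 the Stat3 KO differences were 0 and -0.32. Because Selp was picked with these responses known, its difference between genotypes was not tested as a result of its own. Over all probe sets the limma interaction called 0 of 6756.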

How the results depend on the processing

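Counts of calls were small and moved with the fit. Against 0 calls, the replicate block gave 2 for OSM in Stat3 KO cells, where setting values under 5 to 5 gave 1, and 1 for OSM in Stat3 WT cells. For Stat3 KO against WT with OSM the 1 call became 7 with the replicate block. It became 0 without the trend, with robust estimation, with only the groups compared, after quantile normalization, after median centring and with values under 5 set to 5, and it was 0 to 1 with 1 array left out. In these comparisons the block changed no call of a member besides Selp. For the number, a fit that left out the 4 groups called 1 member probe set in place of 2. Separation of at least 2-fold without a test held for 49 probe sets (Stat3 KO against WT), 51 (OSM in Stat3 KO), 70 (OSM in Stat3 WT), 131 (Stat3 KO against WT with OSM) and 296 (number). The 2775 calls for the number were 7210 without the filter and 1223 to 2599 with 1 array left out, and their split into 1582 higher and 1193 lower in number 3 became 1263 and 1447 after quantile normalization and 951 and 1794 after median centring. Fewer arrays or more probe sets enter these fits by construction, and no other cause was tested.

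Of 25 differences (5 kept genes in 5 comparisons) 12 kept their sign in every setting tried and 13 turned at least once. Over 370 values 31 had turned, 18 of them with 1 array left out, which unbalances the numbers. Part of the 370 could not differ from the planned value, so their total is no measure of stability. The block leaves each mean unchanged, and so does leaving out an array of a group not compared. Selp kept its sign in all comparisons but OSM in Stat3 KO cells, ranging from -6.93 to -4.70 for Stat3 KO against WT with OSM and from 1.29 to 3.51 for OSM in Stat3 WT cells. Icam1 ranged from 0.85 to 3.16 for OSM in Stat3 WT cells. Alcam without OSM ranged from -0.30 to 3.75. Selp, Icam1, Alcam and Mcam have 1 probe set each, and dim values limit what Selp in Stat3 KO cells can show. Setting values under 5 to 5 for the list genes, the genes of like pattern and the members' ranks was chosen after seeing the data.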
